A study of Mus musculus with 25 samples.

Results

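Imprinted genes were followed in the mesenchyme, the embryonic connective tissue, of the mouse mammary and salivary glands and of ventral skin. A list of 33 mouse genes that are expressed mainly from 1 parental copy was used, and a gene was taken where its Ensembl identifier had a row in the table of counts. Rows were found for 26 of the 33 genes, among 35880 rows in all. Of these, 18 of 21 listed genes are expressed from the paternal copy and 7 of 11 from the maternal copy. The remaining gene, Gnas, has transcripts of either parental origin and was kept apart. All 26 passed the filter on low counts that edgeR applies. The libraries hold sums over both parental copies, so the classes below are those known for the mouse and were not measured in these tissues. Whether each gene is imprinted in mesenchyme was not measured either.

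Imprinted genes lie in clusters, or domains, in which DNA methylation set in the egg or the sperm silences 1 parental copy in the offspring. Many of them act on embryonic and placental growth. As a broad pattern, paternally expressed genes such as Peg3, Mest and Dlk1 favour growth or keep precursor cells immature, and maternally expressed genes such as Cdkn1c, Grb10 and Phlda2 restrain it. In mesenchyme, several of the paternally expressed genes mark immature fibroblasts, preadipocytes and muscle precursors.

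The mesenchyme came from C57Bl/6JOlaHsd embryos with no transgene or treatment named, and 5 libraries were made for each of 5 tissues. Ventral skin mesenchyme away from the mammary region (VM), mammary mesenchyme at the bud stage (E13.5 MM) and submandibular salivary gland mesenchyme (SM) were taken at E13.5. Mammary mesenchyme (E16.5 MM) and the fat pad precursor (FP) were taken at E16.5, from embryos labelled female, while no sex is given at E13.5. Every library pooled mesenchyme of 2 to 3 littermates after the epithelium had been removed. Each set of 5 libraries drew on 3 litters, which means that some pools were of the same litter, and p-values measure the spread between pools. Stage and the recorded sex cannot be told apart in comparisons of E16.5 with E13.5. FP against E13.5 MM also differs in the tissue taken, which cannot be told apart from stage either.

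Library totals ran from 20678150 to 34448304 counts, with a median of 26370369, and no libraries were identical. A list of 10 mesenchyme markers summed to between 13140 and 47610 CPM, counts scaled to a common library total, in every library. The median of these sums was lowest in SM, 13780 CPM, and highest in E16.5 MM, 43170 CPM. No mesenchyme marker lay under 0.1 CPM in any tissue, and 7 epithelial markers summed to at most 97.52 CPM. Other cell types differed between tissues. Leukocyte, erythroid and endothelial markers were lowest in SM, with sums of at most 36.86, 1042 and 429.2 CPM. In FP they reached 288.8, 6861 and 1077 CPM. The 12 neuronal markers summed to 400 to 507.6 CPM in SM, where none lay under 0.1 CPM, against 85.94 to 192.7 CPM elsewhere. The 12 skeletal muscle markers summed to 2315 to 23020 CPM in FP and 874 to 3730 CPM in E16.5 MM, against at most 729.7 CPM at E13.5, where Ckm lay under 0.1 CPM in all 3 tissues. Adipocyte markers summed to 1018 to 1837 CPM in FP and at most 397.3 CPM elsewhere, and 6 cell cycle markers to 993.5 to 1526 CPM in SM against 1902 to 3097 CPM elsewhere. In such bulk samples, fewer cells of a type and less RNA per cell cannot be told apart.

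Listed genes without a row were the maternally expressed H19, Meg3, Rian and Mirg and the paternally expressed Kcnq1ot1, Peg13 and Airn. All 7 are non-coding RNA genes and were not analysed here. The table holds rows for 21718 of 21951 protein-coding genes of GENCODE M21 but for 23 of 5854 lincRNA genes and 5 of 2959 antisense genes. The maternally expressed class therefore consists of protein-coding genes, as does the paternally expressed one.

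The promoters of genes that the results below turn on are shown here, since levels of neighbouring genes are compared further on. Each is 300 bases of RefSeq sequence on GRCm38.p6, from 250 bases before the annotated start to 50 bases after it, on the gene's own strand, with every CG dinucleotide in capitals. Peg3 and Zim1 are paternally and maternally expressed neighbours, Ndn and Magel2 are both paternally expressed, and Nnat had the largest fall.
Peg3, chr7:6730370-6730669, minus strand: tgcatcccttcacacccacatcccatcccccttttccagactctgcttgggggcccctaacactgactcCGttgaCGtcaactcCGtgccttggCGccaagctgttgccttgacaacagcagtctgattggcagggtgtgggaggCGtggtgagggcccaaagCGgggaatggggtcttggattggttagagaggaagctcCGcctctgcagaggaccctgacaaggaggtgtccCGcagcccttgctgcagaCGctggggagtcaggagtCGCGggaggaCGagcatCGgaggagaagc
Zim1, chr7:6696383-6696682, minus strand: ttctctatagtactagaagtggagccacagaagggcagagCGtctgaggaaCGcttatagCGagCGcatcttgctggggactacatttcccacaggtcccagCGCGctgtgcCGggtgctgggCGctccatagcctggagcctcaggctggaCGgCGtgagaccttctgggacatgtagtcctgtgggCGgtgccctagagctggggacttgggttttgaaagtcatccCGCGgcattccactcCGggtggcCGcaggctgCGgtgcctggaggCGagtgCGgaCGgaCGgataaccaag
Ndn, chr7:62348027-62348326, plus strand: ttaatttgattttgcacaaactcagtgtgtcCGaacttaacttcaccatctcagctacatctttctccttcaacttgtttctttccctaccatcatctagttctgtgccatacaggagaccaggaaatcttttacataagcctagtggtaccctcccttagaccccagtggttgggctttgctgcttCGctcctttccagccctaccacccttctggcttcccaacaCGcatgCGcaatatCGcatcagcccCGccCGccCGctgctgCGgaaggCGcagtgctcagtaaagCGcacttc
Magel2, chr7:62376729-62377028, plus strand: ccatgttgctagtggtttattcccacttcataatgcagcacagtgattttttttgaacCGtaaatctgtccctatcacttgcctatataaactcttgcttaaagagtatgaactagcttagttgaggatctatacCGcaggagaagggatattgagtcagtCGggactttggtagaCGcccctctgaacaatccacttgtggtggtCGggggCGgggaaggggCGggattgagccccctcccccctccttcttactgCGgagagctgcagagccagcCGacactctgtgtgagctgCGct
Nnat, chr2:157559828-157560127, plus strand: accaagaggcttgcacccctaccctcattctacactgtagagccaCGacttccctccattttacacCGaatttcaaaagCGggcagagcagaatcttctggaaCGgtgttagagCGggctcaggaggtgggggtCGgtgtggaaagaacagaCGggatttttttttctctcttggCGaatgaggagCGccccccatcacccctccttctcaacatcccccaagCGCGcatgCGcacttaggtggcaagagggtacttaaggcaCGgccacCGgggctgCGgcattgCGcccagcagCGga
The Ndn window lies inside the GENCODE M21 gene, which begins at chr7:62346569. CG dinucleotides, the sites of DNA methylation, numbered 13 in the Peg3 window, 20 for Zim1, 11 for Ndn, 10 for Magel2 and 17 for Nnat. Windows were found for 21 of the 26 genes, 32 in all because some have several starts. Their CG counts had a median of 15.5 and ran from 2 to 45, against a median of 7 over 32851 windows of all genes. Of the 32, 27 lay at or above that median. Some windows overlap, such as those of Gnas, of Mest and of Peg3 with Usp29, so the 32 are not separate units. The letters GGGGCCCC, known as the core of the sequence that the Plagl1 protein binds, were searched on both strands, which are the same for this palindrome. They occurred in 1.08% of all windows and in 2 of the 32, those of Peg3 and Usp29. These 2 genes are transcribed away from each other, from starts 147 bases apart in GENCODE M21. Their windows, which rest on RefSeq starts, share 263 bases, so the match is a single stretch. A match is a description of the letters only. Methylation was not measured.

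Most of the imprinted genes differed between at least 1 pair of tissues, though 65 of the 156 single tests were called. To be called, a gene had to pass 3 limits: its log2 fold change was 0.58 or more in size, its adjusted p lay under 0.05 and, in the tissue with the higher level, its mean exceeded 50 normalized counts. SE below is the standard error of a log2 fold change. A normalized count is a count scaled by the library's effective size to the mean library. By this rule 20 of the 26 genes were called in at least 1 of 6 comparisons, where 50.3% of all 17657 tested genes were. Magel2 was called in all 6 of them, Rtl1, Dio3 and Nnat in 5 each, and Ascl2, Phlda2, Slc22a18, Peg12, Zrsr1 and Impact in none. The comparisons share tissues, mostly E13.5 MM, so their calls are not independent of each other.

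**Figure D1:**
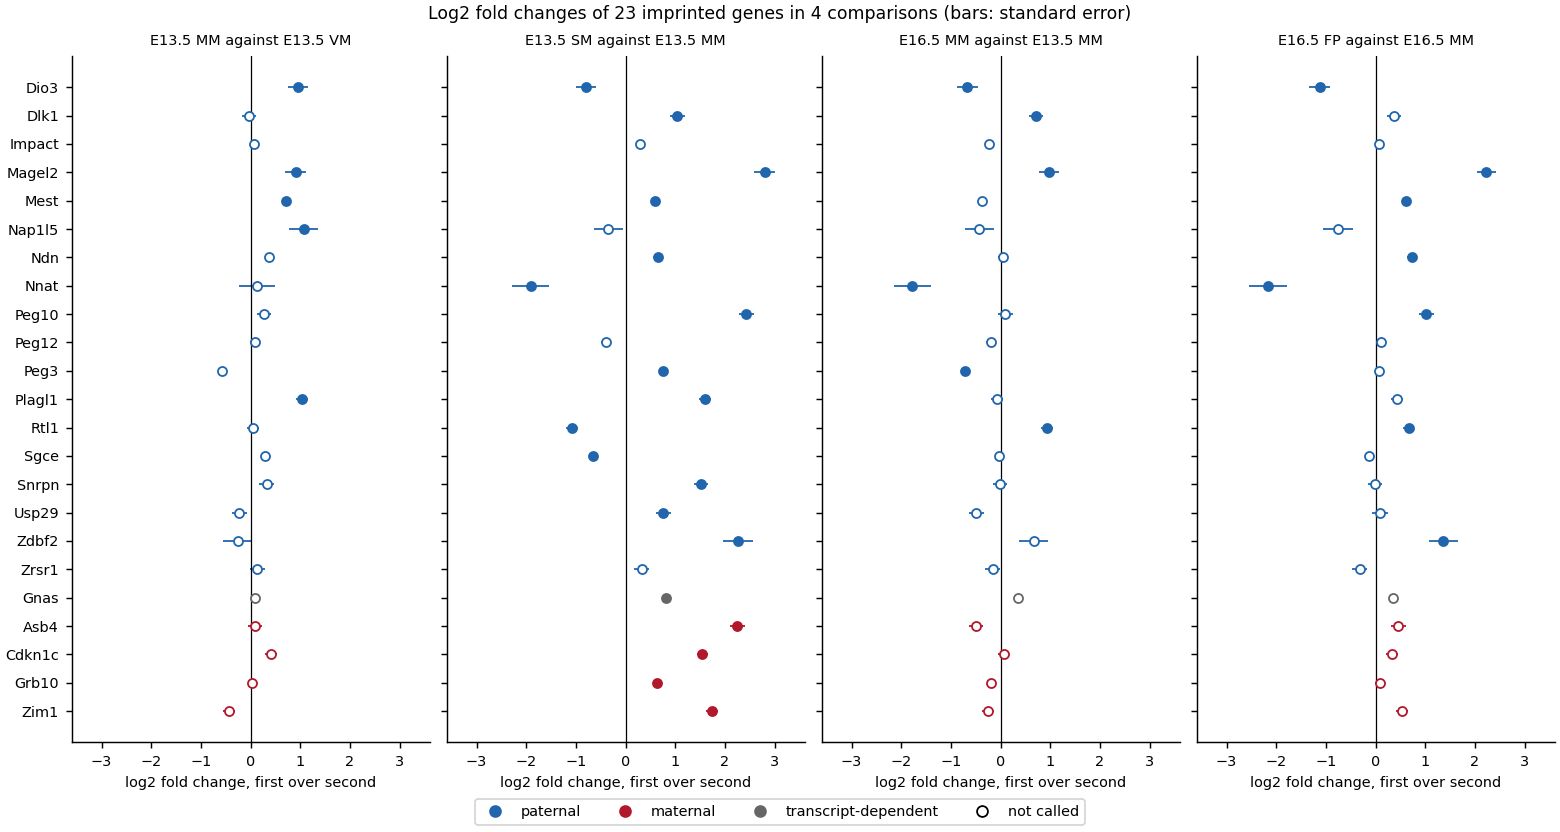
Log2 fold changes (x axis, first tissue over second, with bars of 1 standard error) of the 23 imprinted genes that reach a mean normalized count of 50 in at least 1 tissue, in 4 comparisons. Filled points are called genes, open points are not. In SM against E13.5 MM the 4 maternally expressed genes shown, Asb4, Cdkn1c, Grb10 and Zim1, are all called higher, while in the other 3 panels none of them is called.

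SM had the most calls. Against E13.5 MM, 15 imprinted genes were higher and 4 lower, where 15.6% of all 17657 tested genes were higher and 14.5% lower. Of the paternally expressed genes 10 of 18 were higher and 4 lower, and of the maternally expressed genes 4 of 7 were higher and none lower. The median log2 fold change was 0.62 over the paternally and 1.34 over the maternally expressed genes, beside -0.03 over all genes. The maternal median was the value of a scarce gene, Phlda2, with means of 47.3 normalized counts in SM and 18.6 in E13.5 MM. Slc22a18 (0.66) and Ascl2 (-1.47) were scarcer still, so the size of this median is not set against the paternal one. Against VM, 14 were higher and 2 lower, where 15.6% and 14.7% of all genes were. That comparison had 9 paternally and 4 maternally expressed genes higher and 2 paternally expressed genes lower, with a median of 0.96 over the 26 genes and -0.04 over all.

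The other comparisons called fewer. Between E13.5 MM and VM, 5 were higher on the mammary side and none lower, where 3.79% and 2.66% of all genes were, and all 5 were paternally expressed. With stage in MM, 3 rose and 3 fell, beside 12.6% and 7.16% of all genes, so these counts were near the background. For FP against E13.5 MM the numbers were 7 higher and 4 lower, beside 14.3% and 11.2%, and for FP against E16.5 MM 6 higher and 2 lower, beside 6.78% and 7.34%. No maternally expressed gene was called in these 4 comparisons, where Phlda2, Slc22a18 and Ascl2 were too scarce for a call. Statements below that libraries did not overlap are read against the share of all tested genes of which that is true, 14.3% for E13.5 MM against VM, 46.7% for SM against E13.5 MM, 43.7% for SM against VM, 36.3% for E16.5 MM against E13.5 MM, 38.3% for FP against E13.5 MM and 22.5% for FP against E16.5 MM. Gnas was called once in the 4 comparisons without SM, higher in FP than in E13.5 MM.

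The plot of normalized counts by library shows the 12 genes that carry most of these differences.

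**Figure D2:**
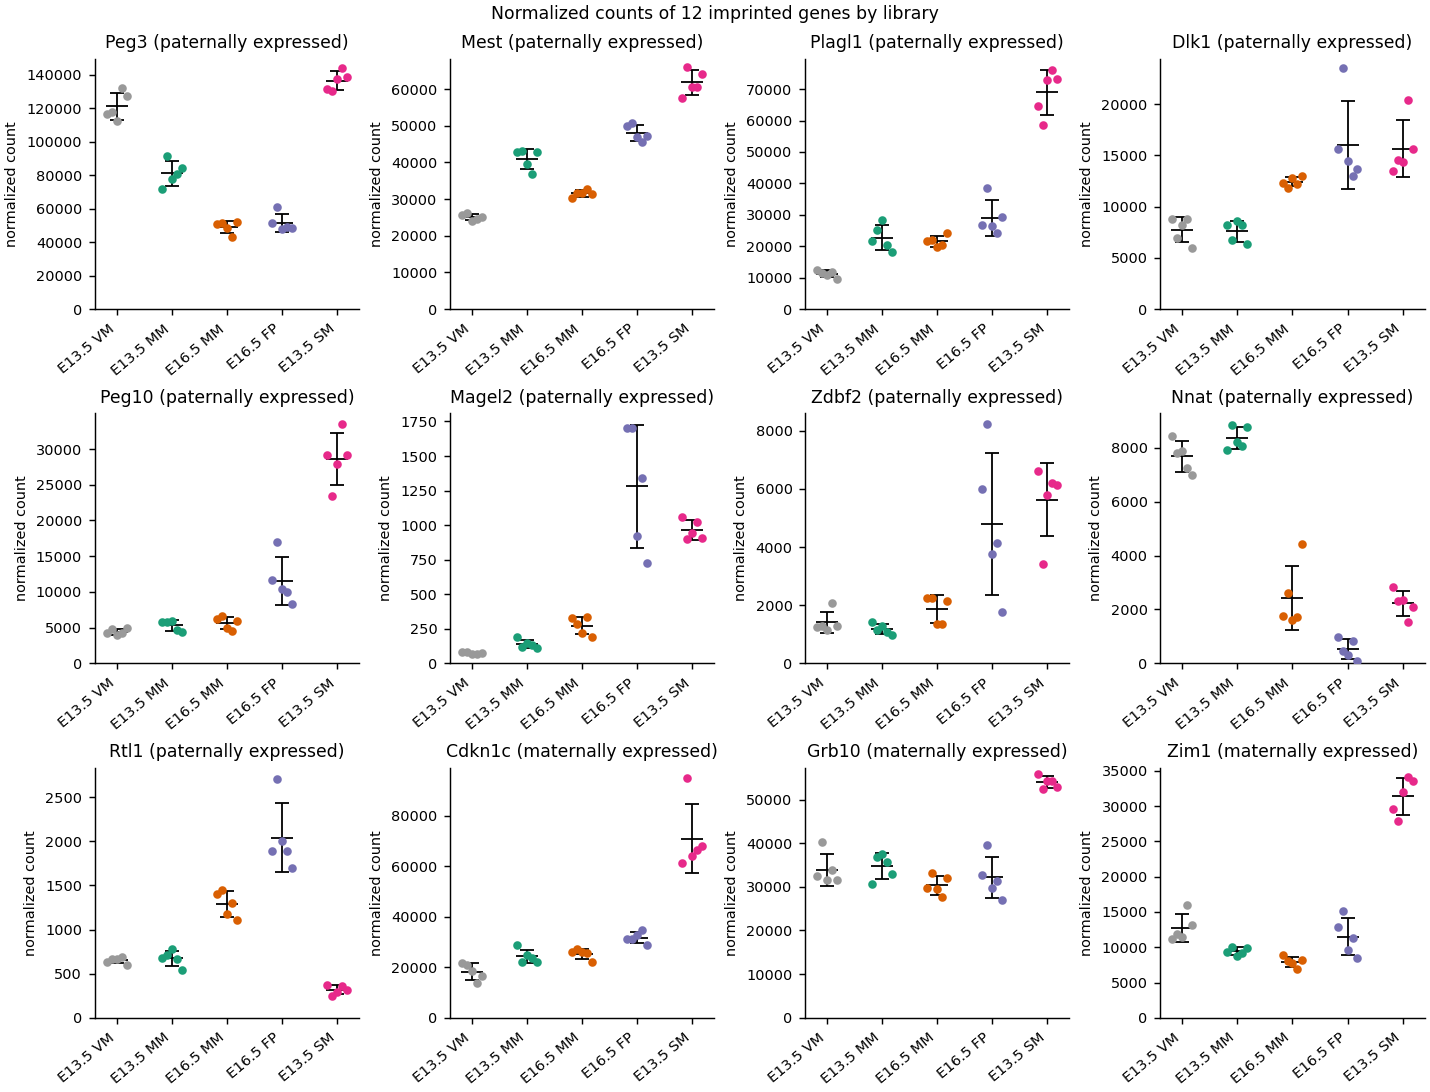
Normalized counts (y axis, linear, from 0) of 12 imprinted genes in each of the 25 libraries by tissue, with bars for the mean ± SD (n = 5). Cdkn1c, Grb10, Zim1, Plagl1 and Peg10 have all SM libraries above those of every other tissue, Nnat is high in VM and E13.5 MM, and Rtl1 is highest in FP.

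Cdkn1c, Grb10, Asb4 and Zim1, of the maternally expressed genes, had their highest means in salivary mesenchyme. Cdkn1c (ENSMUSG00000037664, chr7:143458339-143461050 on mm10) encodes the cyclin-dependent kinase inhibitor p57. Its normalized counts were 61314, 94975, 64017, 66329 and 68184 in SM, against 28739.7, 22301, 24843, 23787 and 22030.0 in E13.5 MM. All salivary libraries lay above all mammary ones, with replicate 2 far above the rest. Cdkn1c was higher in SM than in E13.5 MM by 1.54 (SE 0.119, adjusted p = 3.56e-11) on the log2 scale and than in VM by 1.95 (SE 0.121, adjusted p = 4.26e-13). Cdkn1c means in the other tissues were 18331 ± 3202 in VM, 25366 ± 2061 in E16.5 MM and 31739 ± 2120 in FP (SD, n = 5 each). Cell cycle markers were lowest in SM, as given above, and their part in the Cdkn1c values was not tested.

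Grb10 (ENSMUSG00000020176, chr11:11930508-12038683) encodes an adaptor that dampens insulin and IGF receptor signalling. It had 55808, 52344, 54340.3, 54306 and 52796 normalized counts in SM and 30534, 36929, 37604, 35588 and 32855 in E13.5 MM. The salivary values were tightly grouped and did not overlap the mammary ones, and the log2 fold change was 0.64 (SE 0.0891, adjusted p = 1.01e-06). The other 4 tissues had means from 30405 to 34702, and none of the 4 comparisons among them was called, with log2 fold changes from -0.19 to 0.08.

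Asb4 and Zim1 followed the same direction with larger changes. Asb4 (chr6:5383386-5433022), a substrate adaptor of a ubiquitin ligase known from vascular development, had 4039, 3276, 3259, 3449.9 and 4246 normalized counts in SM and 777, 829.8, 802, 651 and 784 in E13.5 MM. That is a log2 fold change of 2.25 (SE 0.148, adjusted p = 2.38e-12). Zim1 (chr7:6671269-6696450), a zinc finger gene beside Peg3, had 29648, 27852, 31936, 34051 and 33514 in SM and 9259, 10068, 8714, 9228 and 9909.7 in E13.5 MM, a log2 fold change of 1.74 (SE 0.122, adjusted p = 5.94e-12). Zim1 had 11132, 11817, 11448, 15979.9 and 13152 in VM and 12911, 15096, 9651, 11378 and 8524 in FP. Asb4 means were 727 ± 159 in VM, 746 ± 189 in FP and 545 ± 51.6 in E16.5 MM (SD, n = 5 each). For both genes every salivary library lay above every library of the other 4 tissues.

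The remaining maternally expressed genes were scarce. Phlda2, a restraint on placental growth, had means of 7.86 to 18.6 normalized counts in 4 tissues and 47.3 ± 9.96 in SM. Its log2 fold change of 1.35 against E13.5 MM had an adjusted p of 0.00254, and all salivary libraries lay above all mammary ones, but the mean stayed under the 50 that a call needs. Slc22a18, a transporter of the same domain, had means of 6.13 to 31.1. Ascl2, a transcription factor of the placenta and of stem cells, had means of 2.56 to 11.4.

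Among the paternally expressed genes, Peg3 was the most abundant in counts. Peg3 (ENSMUSG00000002265, chr7:6703892-6730431) encodes a zinc finger protein of growth and metabolic control. Its normalized counts were 116386, 117538, 112290.0, 132181 and 127190.0 in VM and 71488, 91446, 77726, 80542 and 84378 in E13.5 MM. At E16.5 they were 51020.5, 51597, 48225, 43276 and 51987 in E16.5 MM. In FP they were 51195, 60816, 47857, 49062 and 48471, overlapping E16.5 MM, and in SM 131283, 130307, 137202, 144316 and 138731. Skin and salivary mesenchyme were thus both above mammary mesenchyme, and these 2 tissues overlapped each other.

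With stage, Peg3 in MM fell by 0.72 (SE 0.0792, adjusted p = 5.43e-08). Peg3 was also lower in FP than in E13.5 MM, with a log2 difference of -0.66 (SE 0.0791, adjusted p = 1.21e-07). In SM it was higher than in E13.5 MM by 0.75 (SE 0.0792, adjusted p = 1.02e-08). Between E13.5 MM and VM its log2 fold change was -0.578 (SE 0.079), with all mammary libraries below all skin libraries, and missed the limit of 0.58. It passed that limit when any of E13.5 MM replicate 2 or 5 or VM replicate 2 or 3 was left out. The value for FP against E16.5 MM was 0.06 (SE 0.0788).

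Mest and Plagl1 separated mammary from skin mesenchyme. Mest (chr6:30723547-30748465), a mesoderm gene of the hydrolase family linked to fat expansion, had 25532, 26091, 24021, 24613 and 25118 normalized counts in VM and 42853, 43149, 39443, 36763 and 42744 in E13.5 MM. Its log2 fold change was 0.71 (SE 0.0591, adjusted p = 2.19e-09), and the ranges were far apart. Mest was higher again in FP than in E16.5 MM, by 0.61 (SE 0.059), and in SM than in E13.5 MM, by 0.59 (SE 0.059). Both of these lie close to the limit of 0.58: the first fell to 0.57 without FP replicate 2, and the second ran from 0.557 to 0.578 without E13.5 MM replicate 3 or 4 or SM replicate 2. Its exons overlap those of Copg2 on the other strand, and Copg2 had means of 1096 to 1329 normalized counts.

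Plagl1 (ENSMUSG00000019817, chr10:13060504-13131694) encodes a zinc finger transcription factor known to act on other imprinted genes. In VM it had 12312, 11494, 10811, 11785 and 9425 normalized counts. E13.5 MM had 21631, 25304, 28228, 20547 and 18162, while SM had 64646, 58644, 72826, 75978 and 73148. The 3 tissues of E13.5 did not overlap. The log2 fold changes were 1.03 for E13.5 MM against VM (SE 0.12, adjusted p = 6.05e-07), 1.60 for SM against E13.5 MM (SE 0.122, adjusted p = 2.73e-11) and 2.63 for SM against VM (SE 0.127, adjusted p = 2.97e-15). In E16.5 MM against E13.5 MM its value was -0.08 (SE 0.119).

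Genes derived from retrotransposons, Peg10 and Rtl1, moved in opposite directions in salivary mesenchyme. Both are needed in the placenta. Peg10 (ENSMUSG00000092035, chr6:4747306-4760517) had 29139, 23374, 27904, 33492 and 29154 normalized counts in SM and 5802, 5739.6, 5923, 4668 and 4416 in E13.5 MM, a log2 fold change of 2.43 (SE 0.153, adjusted p = 8.56e-13). In FP it had 11671, 17044, 10474, 9945 and 8286, all above E16.5 MM, where the mean was 5673 ± 854 (SD, n = 5). That difference was 1.02 (SE 0.146, adjusted p = 5.25e-06).

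Rtl1 (chr12:109589193-109600330), also known in muscle development, was lowest in SM, with 369, 247, 294, 360.0 and 318 normalized counts against 679.7, 706, 775, 668 and 539 in E13.5 MM. The difference was -1.08 on the log2 scale (SE 0.121, adjusted p = 2.69e-08). With stage it rose to 1408, 1445, 1173, 1304 and 1106 in E16.5 MM. In FP it had 1889.8, 2709, 2006, 1893 and 1698. The log2 fold changes were 0.93 for E16.5 MM against E13.5 MM (SE 0.119, adjusted p = 5.08e-07) and 0.66 for FP against E16.5 MM (SE 0.117, adjusted p = 6.85e-05). The second became 0.53 without FP replicate 2 and was then not called. Exons of Rtl1 overlap microRNA genes of the maternal copy that have no row.

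Dlk1 and Dio3 share the chromosome 12 domain with Rtl1. Dlk1 (ENSMUSG00000040856, chr12:109452823-109463336) encodes a Notch-like surface protein that holds preadipocytes immature. Its normalized counts were 8239.8, 6691, 8547, 8234 and 6319 in E13.5 MM, 12347, 11824, 12749, 12214 and 12933 in E16.5 MM, 15610.1, 23514, 14436, 12948 and 13619 in FP, and 13465, 14516, 14342, 20421 and 15577 in SM. Mammary mesenchyme of E13.5 was thus below the other 3 tissues without overlap. Dlk1 was higher by 0.71 in E16.5 MM (SE 0.142, adjusted p = 0.000224), by 1.08 in FP (SE 0.143, adjusted p = 6.34e-07) and by 1.04 in SM (SE 0.143, adjusted p = 7.87e-07). In VM it had a mean of 7758 ± 1233, and the difference from E13.5 MM was -0.03 (SE 0.142).

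Dio3 (chr12:110279068-110281097), the deiodinase that inactivates thyroid hormone, had its peak in E13.5 MM. Its normalized counts there were 351, 301, 315, 289 and 202, against 170.1, 143, 181, 145 and 115 in VM and 54.5, 73.4, 119.6, 79.8 and 92.0 in FP. E13.5 MM lay above both without overlap. The log2 fold changes were 0.95 for E13.5 MM against VM (SE 0.205, adjusted p = 0.00162) and -1.80 for FP against E13.5 MM (SE 0.214, adjusted p = 9.35e-08). Dio3 was also lower in SM and in E16.5 MM, with log2 fold changes of -0.80 and -0.67, where the libraries overlapped those of E13.5 MM. Dio3 had, in E16.5 MM, 123, 229, 155, 146 and 261, and in SM 139, 178, 166, 144 and 213. The value for E16.5 MM was no longer called without E16.5 MM replicate 1 (-0.56) or replicate 4 (-0.576).

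Genes of the Prader-Willi domain on chromosome 7 differed widely among themselves. Magel2 (ENSMUSG00000056972, chr7:62377010-62381640), a partner of ubiquitin ligases in protein recycling, had the largest range. Its normalized counts were 80.7, 83.1, 66.0, 70.1 and 73.3 in VM, 189, 119, 150.3, 133 and 109 in E13.5 MM, and 328, 288, 224, 333 and 192 in E16.5 MM. They reached 1705, 1702, 924, 1339.6 and 729.7 in FP and 1063, 900.1, 945, 1023 and 905 in SM. Each step from VM to E13.5 MM to E16.5 MM to FP was called and had no overlap, with log2 fold changes of 0.91 (SE 0.213), 0.97 (SE 0.202) and 2.23 (SE 0.199). In SM it was higher than in E13.5 MM by 2.79 (SE 0.205, adjusted p = 2.37e-11).

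Ndn (chr7:62346569-62350262), a growth suppressor related to Magel2, had normalized counts of 4943, 4359, 4367, 4658 and 4112 in E13.5 MM and of 4291, 4767, 4583, 5229.5 and 4276 in E16.5 MM, with overlap. In FP it had 8433, 8358, 7096, 7894 and 6502, above both, and the difference from E16.5 MM was 0.73 (SE 0.0945, adjusted p = 1.1e-06). In SM it was higher than in E13.5 MM by 0.65 (SE 0.0943), a value of 0.55 and no call without SM replicate 2. Snrpn, a splicing protein gene, had 406, 387, 310.1, 374 and 391 in SM against 116, 121, 160.1, 127 and 129.9 in E13.5 MM, a log2 fold change of 1.51 (SE 0.141, adjusted p = 1.06e-09). It shares exons with Snurf, which had a mean of at most 0.957 normalized counts in any tissue. Peg12, the fourth gene of the domain, had in E13.5 MM 564, 522, 488, 593 and 628 normalized counts, with 454, 539, 587, 581 and 449 in FP and 488, 399.7, 376, 431 and 427 in SM, and was not called.

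Magel2 and Snrpn are known as neuronal genes. They were raised in SM, where the 12 neuronal markers summed to at least 400 CPM, and Snrpn had 131, 149, 128, 122 and 112 normalized counts in FP, where those markers summed to 85.94 to 192.7 CPM and Magel2 was high. The part of neurons in these values was not tested.

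Nnat (ENSMUSG00000067786, chr2:157560078-157562522), a small membrane protein of the endoplasmic reticulum, had the largest fall of the 26 genes. It had 8418, 7807, 7886, 7248 and 7004 normalized counts in VM and 7927, 8830.0, 8206, 8055 and 8779 in E13.5 MM, which overlapped. It had 1746, 2620.4, 1622, 1717 and 4440.1 in E16.5 MM, 986, 469, 330.5, 826 and 104 in FP, and 2831, 2312, 2338, 1539 and 2107 in SM. All libraries of these 3 tissues lay below those of VM and E13.5 MM. The log2 fold changes against E13.5 MM were -1.78 in E16.5 MM (SE 0.371, adjusted p = 0.000449), -3.94 in FP (SE 0.409, adjusted p = 4.03e-08) and -1.91 in SM (SE 0.372, adjusted p = 0.00014). Nnat is also known from neurons. In SM, where the neuronal markers were highest, its values lay below those of E13.5 MM and above those of FP. The part of neurons in the Nnat values was not tested.

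Zdbf2 (chr1:63273265-63314576), which has a zinc finger domain and is known from the growth and feeding of newborn mice, was higher in FP and SM. Its normalized counts were 1429, 1154, 1276, 1066 and 964 in E13.5 MM, 6003, 8225, 3768, 4145 and 1778 in FP, and 6602, 3429, 5775, 6184 and 6129 in SM. The log2 fold changes against E13.5 MM were 2.02 in FP (SE 0.296, adjusted p = 5.09e-06) and 2.26 in SM (SE 0.298, adjusted p = 9.99e-07), with no overlap. The spread in FP was wide, and its lowest library, replicate 5, lay within the range of E16.5 MM, 1339.7 to 2251.

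Replicate 5 of FP also had the lowest Magel2, Nnat and Peg10 values of that tissue, and replicate 2 the highest Peg10, Zdbf2, Dlk1 and Rtl1 values. Of 22 imprinted genes with a mean of at least 50 in FP, 12 were highest in replicate 2 and 12 lowest in replicate 5. The share among all genes was not determined, so these counts say nothing particular to imprinted genes. The skeletal muscle markers summed to 23020 CPM in replicate 2 and 2315 CPM in replicate 5, the ends of the range in FP. Their part in the values of the fat pad precursor was not tested. Without replicate 2, FP against E16.5 MM had 4 imprinted genes higher and 2 lower, and without replicate 5, 7 higher and 2 lower. Against E13.5 MM the counts were 7 and 4 in both cases.

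The other paternally expressed genes changed less or were scarce. Usp29, a deubiquitinase gene beside Peg3, had 3690.3, 3903, 4004, 5250.0 and 3975 normalized counts in SM and 2512, 1913, 2246, 2873 and 2775 in E13.5 MM, with a log2 fold change of 0.76 (SE 0.156, adjusted p = 0.000193). Its means elsewhere were 2884 ± 318 in VM, 1863 ± 390.0 in FP and 1755 ± 419 in E16.5 MM (SD, n = 5 each). Sgce, the epsilon-sarcoglycan of the muscle membrane complex, was lower in SM, with 1085, 1290.3, 1348, 1017 and 1195 normalized counts against 1831, 1802, 2018, 1745 and 1931 in E13.5 MM, a log2 fold change of -0.65 (SE 0.0764, adjusted p = 5.87e-08). Sgce means were 1523 ± 130 in VM, 1667 ± 140 in FP and 1817 ± 84.0 in E16.5 MM (SD, n = 5 each). Nap1l5, of a histone chaperone family, stood in E13.5 MM at 43.0, 68.0, 63.4, 76.0 and 76.0 normalized counts, with 32.3, 29.1, 37.7, 27.2 and 29.1 in VM, where it was called lower (1.07 for E13.5 MM against VM, SE 0.294, adjusted p = 0.0125). Its means were 51.5 ± 24.1 in SM, 28.7 ± 8.56 in FP and 48.7 ± 17.0 in E16.5 MM (SD, n = 5 each). Its call in SM against VM (0.72, adjusted p = 0.0372) was lost in several alternatives, among them fits without SM replicate 2, 3 or 5 or VM replicate 2, 4 or 5, where the adjusted p ran from 0.0556 to 0.158. Impact, a regulator of the stress response of translation, ran from 1959.8 to 2799.7 and Zrsr1, a splicing factor gene, from 165 to 287, with no call.

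Gnas (chr2:174284320-174346744) encodes the stimulatory G protein alpha subunit and several other products. Its means were 30877 ± 3049 in VM, 32999 ± 2531 in E13.5 MM, 42013 ± 2625 in E16.5 MM, 53726 ± 4547 in FP and 58209 ± 3948 in SM (SD, n = 5). It was higher than in E13.5 MM by 0.70 in FP (SE 0.0779) and by 0.82 in SM (SE 0.078), with no overlap. The count is a sum over maternally, paternally and biallelically expressed transcripts, which it does not separate.

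Levels of different genes were compared per kilobase of exon. In E13.5 MM the highest mean was that of Cdkn1c, with 449.7 CPM per kb, followed by Mest with 391.4, Peg3 with 229.3, Nnat with 172.2 and Grb10 with 143.8. In SM Cdkn1c reached 1311 CPM per kb, Mest 590.3, Peg3 385.6, Plagl1 332.7 and Grb10 223.5. In FP Nnat was down to 11.19 CPM per kb. Exon lengths join all annotated exons of a gene, so these levels rest on the GENCODE M21 models.

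Summed over each class, both parental origins were highest in salivary mesenchyme. The 18 paternally expressed genes summed to 7173 ± 313 CPM in VM, 6801 ± 334 in E13.5 MM, 5181 ± 226 in E16.5 MM, 6737 ± 863 in FP and 12701 ± 649 in SM (SD, n = 5). The 7 maternally expressed genes summed to 2476 ± 189, 2610 ± 87.8, 2422 ± 120, 2870 ± 300 and 6028 ± 409 CPM in the same order. The ratio of the paternal to the maternal sum, which needs no scaling between libraries, was 2.91 ± 0.244 in VM, 2.61 ± 0.134 in E13.5 MM, 2.14 ± 0.0993 in E16.5 MM, 2.35 ± 0.176 in FP and 2.12 ± 0.192 in SM. No test was made of these sums. They rest on few genes. Peg3 made up 63.6% of the paternal sum in VM, 44.9% in E13.5 MM and 28.8% in FP. Grb10 and Cdkn1c made up 50.1% and 35.1% of the maternal sum in E13.5 MM and 33.7% and 44.4% in SM.

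**Figure D3:**
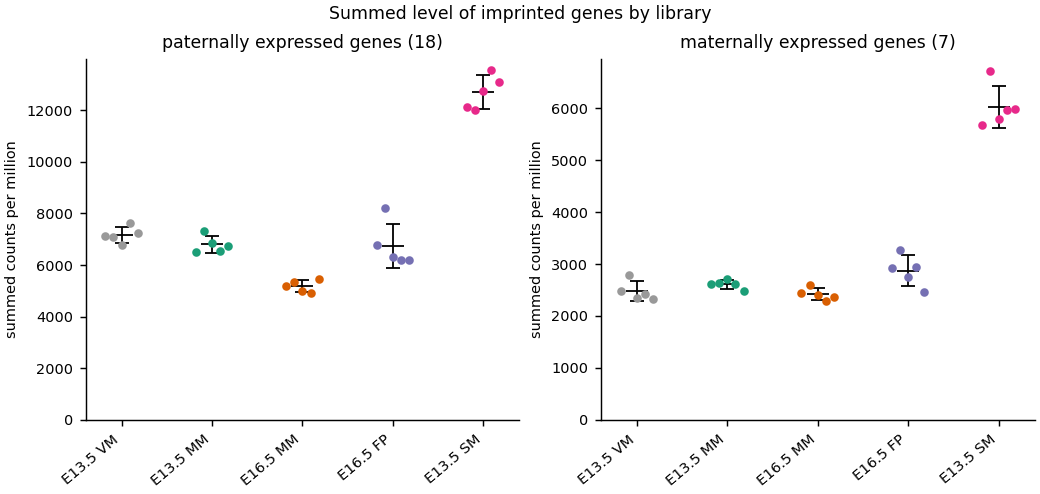
Summed CPM (y axis, linear, from 0) of the 18 paternally expressed and the 7 maternally expressed genes in each of the 25 libraries by tissue, with bars for the mean ± SD (n = 5). In both panels the SM libraries lie above all others, and the paternal sum is lowest in E16.5 MM.

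Ratios between genes of one domain were compared between tissues. For 7 of 13 listed pairs both genes had a row, and 6 pairs had enough counts. The log2 ratio of the counts, with 0.5 added to each, was taken within each library, so that scaling cancels, and compared between tissues with exact two-sided permutation tests. Of 36 tests, 24 had an adjusted p under 0.05. With replicate 2 of each tissue left out, 0 of 37 exact permutation tests passed, although 21 had the smallest possible unadjusted p of 0.0286, and without any other replicate number 22 to 24 passed. The share among pairs of unrelated genes was not determined, so the count says nothing particular to imprinted domains. The smallest p that 5 against 5 libraries allow is 0.00794, which became 0.0136 after adjustment over the 36 tests.

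**Figure D4:**
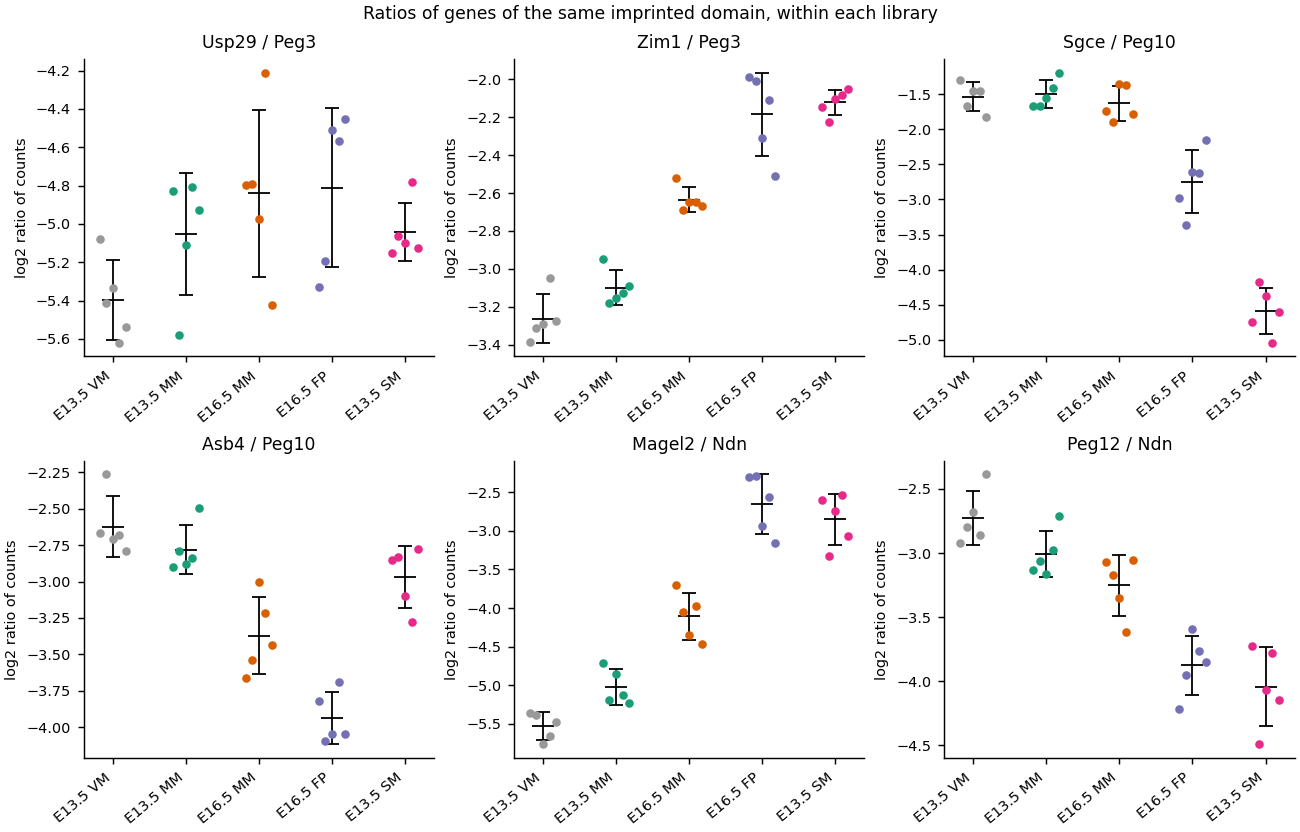
Log2 ratios of counts (y axis) of 6 pairs of genes from one domain in each of the 25 libraries by tissue, with bars for the mean ± SD (n = 5). Sgce / Peg10 is lowest in SM without overlap, Zim1 / Peg3 is highest in FP and SM, and Usp29 / Peg3 overlaps between neighbouring tissues.

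The ratio of the maternally expressed Zim1 to the paternally expressed Peg3, whose promoters are printed above, differed between tissues. Against E13.5 MM, the log2 fold change of Zim1 itself was -0.25 in E16.5 MM and 0.29 in FP, neither called, and 1.74 in SM. Those of Peg3 were -0.72, -0.66 and 0.75 in the same order, all called. The median of Zim1 counts per Peg3 count was 0.102 in VM, 0.115 in E13.5 MM, 0.16 in E16.5 MM, 0.232 in FP and 0.233 in SM. The log2 ratio was higher than in E13.5 MM by 0.47 in E16.5 MM, by 0.92 in FP and by 0.98 in SM, each with the smallest p (exact permutation test, n = 5 against 5, adjusted p = 0.0136). Between E13.5 MM and VM the difference was 0.16, with an adjusted p of 0.0685 by the exact permutation test. Usp29, which starts 147 bases from Peg3 and has the same parental origin, changed relative to Peg3 in 1 of 6 comparisons, SM against VM, by 0.35 (exact permutation test, adjusted p = 0.0475). The other 5 differences ran from 0.01 to 0.34.

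Peg10 and Sgce also start close together, 99 bases apart on opposite strands, and are both paternally expressed. The median of Sgce counts per Peg10 count was 0.341 in E13.5 MM and 0.041 in SM, a difference of -3.09 on the log2 scale (exact permutation test, adjusted p = 0.0136). Between FP and E16.5 MM the log2 ratio differed by -1.11 (exact permutation test, adjusted p = 0.0136), while E16.5 MM and E13.5 MM differed by -0.13 (adjusted p = 0.416, exact permutation test). For the maternally expressed Asb4 of that domain, the log2 ratio to Peg10 differed from that in E13.5 MM by -0.19 in SM (exact permutation test, adjusted p = 0.295) and by -1.16 in FP (adjusted p = 0.0136, exact permutation test). In SM against VM that ratio differed by -0.34 (exact permutation test, adjusted p = 0.0249). Its differences were -0.59 for E16.5 MM against E13.5 MM and -0.57 for FP against E16.5 MM (exact permutation test, adjusted p = 0.0136 each). For E13.5 MM against VM it was -0.16 (exact permutation test, adjusted p = 0.295).

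In the Prader-Willi domain, the ratio of Magel2 to Ndn differed in all 6 comparisons, each with an adjusted p of 0.0136 by the exact permutation test. Its median was 0.0226 in VM, 0.0287 in E13.5 MM, 0.0605 in E16.5 MM, 0.17 in FP and 0.15 in SM. The ratio of Peg12 to Ndn went the other way, with medians of 0.12 in E13.5 MM, 0.0692 in FP and 0.0597 in SM, and differed in 4 of 6 comparisons.

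A further 27 imprinted genes outside the list were counted for comparison, of which 26 could be tested. Against E13.5 MM, SM had 6 of them higher and 4 lower, where 15.6% and 14.5% of all genes were, and the median log2 fold change was 0.13, beside 0.70 over the 26 listed genes. Against VM, SM had 6 higher and 4 lower, beside 15.6% and 14.7% of all genes. For E13.5 MM against VM the numbers were 3 and 1, beside 3.79% and 2.66%, and for E16.5 MM against E13.5 MM 4 and 3, beside 12.6% and 7.16%. For FP they were 4 and 4 against E13.5 MM, beside 14.3% and 11.2%, and 3 and 1 against E16.5 MM, beside 6.78% and 7.34%. Igf2r, the maternally expressed receptor that clears IGF2, had a mean of 20776 in SM and 26769 in E13.5 MM. Its log2 fold change of -0.37 (SE 0.0777, adjusted p = 0.000238) was too small for a call, and it was singled out after its values were seen, since its direction was opposite to that of Cdkn1c and Grb10. Ppp1r9a, a neighbour of Peg10 that binds actin, was higher in SM than in E13.5 MM by 2.05 (SE 0.11, adjusted p = 3.33e-14). Slc38a4, an amino acid transporter, fell with stage in MM by 0.97 (SE 0.0885, adjusted p = 2.58e-09). Ppp1r9a and Slc38a4 are examples, and other genes changed more. In SM against E13.5 MM, the log2 fold change was 2.825 for Ddc and -4.66 for Slc22a3. In E16.5 MM against E13.5 MM, it was 2.765 for Tfpi2, 1.45 for Kcnq1 and -1.12 for Begain.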

How the data were processed

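RNA-Seq of 25 mesenchyme libraries was used. Per the labels, reads were checked with FastQC 0.11.8 and MultiQC 1.9, trimmed with Trimmomatic 0.39 and quantified on mm10 with Salmon 0.99.0, and ribosomal reads were removed with SortMeRNA per the methods. Neither the annotation release nor the use of strand is stated in those sources. The deposited values are estimated counts per gene, in whole numbers. Reads shared by overlapping genes are split by Salmon, which makes their counts uncertain. Symbols, positions and exon lengths came from GENCODE M21 (GRCm38, the assembly of mm10), and promoters from RefSeq.

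After TMM scaling, all 25 libraries entered 1 fit of edgeR 4.0.16 (R 4.3.3) with a mean for each tissue. Its quasi-likelihood F test was used, with Benjamini-Hochberg adjustment across the 17657 genes kept by its filter. Standard errors were derived from F as the size of the log2 value over its square root. Exact permutation tests compared log2 ratios. A fit of 2 tissues was also run on counts simulated from the fit's own estimates. Such a run checks the code and cannot show that the model holds for these libraries. Plots were drawn with matplotlib 3.10.9 and tables made with pandas 2.3.3 under Python 3.11.15.

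Alternatives were the Wald test or the size factors of DESeq2 1.42.0, all genes with a count, fits limited to the pair of tissues at hand, a block for the replicate number, the count limit over both tissues, and each library left out. The imprinted genes, the other gene lists and the tests were chosen with earlier results of these data known. Every listed gene with a row is given by its values in at least 1 comparison or by the range of its means, and values in every library are given for called genes with the largest changes, for Dlk1, Cdkn1c, Grb10 and Plagl1, and for pairs in the ratios.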

Additional observations from a re-analysis of the deposited data

Results flagged for a closer look

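In 10 of 123 sets of 5 libraries, 1 set for each gene and tissue with enough counts, a single library lay far outside the other 4 by Dixon's ratio. Chance alone sets apart about 1 in 20 such sets. All values are normalized counts. In VM, Asb4 was 1004 in replicate 2 (599.1 to 707.4 in the others), Grb10 was 40320 in replicate 2 (31520 to 33760), Usp29 was 3449 in replicate 1 (2687 to 2785) and Zdbf2 was 2062 in replicate 4 (1145 to 1294). In SM, Cdkn1c was 94970 in replicate 2 (61310 to 68180), Zdbf2 was 3429 in replicate 2 (5775 to 6602), Gnas was 65070 in replicate 4 (54930 to 57290) and Usp29 was 5250 in replicate 4 (3690 to 4004). In FP, Dlk1 was 23510 in replicate 2 (12950 to 15610) and Peg3 was 60820 in replicate 2 (47860 to 51190).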

How the results depend on the processing

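Of 65 calls of an imprinted gene in a comparison, among 156 tested, none changed direction under any alternative and 8 were lost under at least 1, 6 of them when a library was left out. With the replicate number as a block, which does not pair the samples (correlations of -0.163 to 0.289, 5 of 30 above 0.1), Peg3 was called lower in E13.5 MM than in VM, 1 gene in place of 0, and Nap1l5 in SM against VM was lost (adjusted p = 0.0534). No other call changed with the block. Leaving out libraries gave 0 to 1 genes lower in that first comparison. The 24 ratio tests became 22 with a mean count of at least 100, and 0 to 24 with 1 replicate number left out. The smallest p of 4 against 4 libraries is 0.0286. Without replicate 2, 21 of 37 tests had it where 22 were needed to pass the adjustment, which put the lowest adjusted p at 0.0504, and without the other numbers 22 to 24 tests had it. The paternal sum in SM was 13391 CPM with library totals in place of 12701. Nap1l5 in E13.5 MM against VM and in FP against E13.5 MM was lost with the count limit over both tissues.

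Fold changes near 0, none of them called, changed sign. Snrpn in E16.5 MM against E13.5 MM was -0.0153, and 0.017 with size factors, 0.00625 with only the 2 tissues and 0.0166 with DESeq2. With libraries left out, log2 fold changes in E13.5 MM against VM ran from -0.12 to 0.32 for Ascl2, -0.097 to 0.0382 for Dlk1 and -0.00803 to 0.124 for Rtl1. In E16.5 MM against E13.5 MM they ran from -0.55 to 0.17 for Ascl2, -0.14 to 0.0081 for Plagl1 and -0.0754 to 0.0888 for Snrpn. In FP against E13.5 MM they ran from -0.169 to 0.0851 for Asb4 and -0.0894 to 0.0519 for Snrpn, and in FP against E16.5 MM from -0.0215 to 0.135 for Grb10, -0.0176 to 0.0876 for Peg3, -0.111 to 0.0523 for Snrpn and -0.0263 to 0.196 for Usp29. The cause was not tested. Ratios with genes that have no row were not run. Ascl2, Slc22a18 and Phlda2 had 173, 432 and 536 counts over all 25 libraries, and differences between them could not be called at this depth.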
